A study of Mus musculus with 2 samples.

Results

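The genes described here are 8 of the 32285 in the deposited matrices: C1qa, C1qb and C1qc, which encode the chains of complement C1q, and the microglial identity genes Cx3cr1, P2ry12, Tmem119, Siglech and Csf1r. They were taken by gene symbol. Their levels were read mainly in cells with at least 5 unique molecular identifiers (UMIs, each a counted RNA molecule) of Ctss, Fcer1g and Tyrobp together, myeloid genes that are not among the 8; these are called gated cells. The study exposed mice to short-wavelength light or to full-spectrum white light from postnatal day 14 for 2 weeks and then took the retina for droplet single-cell RNA sequencing. The short-wavelength light group is 1 library and the white light group is 1 library. The labels describe the cells as all those of the retina and mention no sort. The labels used here give no strain, sex, number of animals per library or light intensity. With 1 library per light condition no test was possible, and a difference between the conditions describes just these libraries. Intervals are given at 95%, and they cover counting error only.

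Microglia are the resident immune cells of the retina. They sample their surroundings with fine processes, depend on signals through Csf1r to survive, and are the main source of C1q in the central nervous system. C1q is the recognition molecule of the classical complement pathway, and it can tag synapses and debris for uptake. Cx3cr1 is the receptor for the neuronal chemokine Cx3cl1, P2ry12 is a receptor for ADP that guides process movement, Tmem119 is a membrane protein used to tell microglia from other macrophages, and Siglech is a sialic acid-binding lectin of microglia and plasmacytoid dendritic cells.

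The short-wavelength library held 16106 barcodes and 51681469 UMIs, with a median of 2434 UMIs per barcode, and the white light library held 5707 barcodes and 20952589 UMIs, with a median of 2784. After filtering and doublet removal 14023 short-wavelength and 5436 white light cells were kept. The libraries shared 26 barcodes. Rods made up 13099 of the kept short-wavelength cells and 4897 of the kept white light cells.

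The C1q genes lie side by side on chromosome 4, all on the minus strand. In the GENCODE annotation of mm10, C1qb (ENSMUSG00000036905) is at chr4:136880129-136886187, C1qc (ENSMUSG00000036896) at chr4:136889804-136893065 and C1qa (ENSMUSG00000036887) at chr4:136895917-136898803. Each has 3 exons in its longest transcript and overlaps no other gene. Gaps of 3616 and 2851 bases separate them, and the locus spans 18675 bases. The sequences before the starts of C1qb and C1qc, neighbours that were both found in every gated cell, are printed here. They were taken from RefSeq (GRCm38.p6) and run 5′ to 3′ on the minus strand, 250 bases each, with the last base next to the start. They cover chr4:136886201-136886450 for C1qb and chr4:136892915-136893164 for C1qc. Capitals mark a match to a searched motif on either strand.
C1qb: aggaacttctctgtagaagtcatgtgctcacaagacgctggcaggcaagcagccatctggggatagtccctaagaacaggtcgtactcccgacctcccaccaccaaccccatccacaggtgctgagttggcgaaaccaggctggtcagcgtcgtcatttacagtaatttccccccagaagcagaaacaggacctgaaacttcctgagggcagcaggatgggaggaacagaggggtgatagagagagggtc
C1qc: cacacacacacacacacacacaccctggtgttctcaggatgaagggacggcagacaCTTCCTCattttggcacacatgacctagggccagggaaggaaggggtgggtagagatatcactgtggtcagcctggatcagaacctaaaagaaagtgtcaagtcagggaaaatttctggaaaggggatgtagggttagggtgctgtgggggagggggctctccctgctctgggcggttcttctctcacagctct
The motifs searched were GAGGAAG, a core bound by the myeloid factor PU.1, and TGAGTCA, the site of AP-1 factors; neither overlaps the other. Of 32851 RefSeq promoter windows of 250 bases, 10.6% held GAGGAAG and 4.46% held TGAGTCA on either strand. The window of C1qc held GAGGAAG on the other strand, with its first base at position -194 from the start, and the window of C1qb held neither. The starts of this table are not the only ones annotated: for C1qc and Siglech, the starts in the RefSeq gene table and in GENCODE lie inside the 250 bases searched. The position -194 therefore holds only for the start used in the promoter table. Promoter windows of 5 of the 8 genes were searched, and those of Cx3cr1, P2ry12 and Siglech held neither motif.

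The identity genes lie on 5 other chromosomes. Cx3cr1 (ENSMUSG00000052336) is at chr9:119901616-120069879 on the minus strand. P2ry12 (ENSMUSG00000036353) is at chr3:59216272-59262871 on the minus strand, wholly inside Med12l, which is read from the plus strand. Tmem119 (ENSMUSG00000054675) is at chr5:113793729-113800516 on the minus strand, and Siglech (ENSMUSG00000051504) is at chr7:55768178-55778925 on the plus strand. Csf1r (ENSMUSG00000024621) is on the plus strand of chromosome 18 from 61100598 to 61132149 and overlaps the end of Hmgxb3 on the other strand.

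Cells with RNA of the gate genes stood clearly apart from the rest. Of the kept cells, 13714 short-wavelength and 5306 white light cells had no UMI of Ctss, Fcer1g or Tyrobp, and 252 and 104 had 1 UMI. At the threshold, 3 short-wavelength cells and 0 white light cells had 3 or 4 UMIs. The gate took 44 short-wavelength cells, 0.314% of kept cells (0.228% to 0.421%), and 23 white light cells, 0.423% (0.268% to 0.634%). These intervals overlap. The ratio of the shares, short-wavelength over white light, was 0.742. No barcode with that many gate UMIs was among the doublets removed. The gated cells held a median of 7585.5 UMIs under short-wavelength light, from 607 to 13262, and of 8036 under white light, from 516 to 20456. Of them, 7 short-wavelength and 2 white light cells had under 3000 UMIs, and 0 and 3 had over 15000.

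The cells next to the threshold carried member RNA on both sides of it. Just outside, the short-wavelength cells had 578, 3041 and 5236 UMIs, with 14, 8 and 4 UMIs of the 8 genes. Just inside, with 5 to 9 gate UMIs, the short-wavelength cells had 775, 899 and 5475 UMIs with 15, 19 and 31 UMIs of the 8 genes. The white light cells just inside had 516 and 3089 UMIs, with 14 and 27 UMIs of the 8 genes.

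The gated cells were checked against marker genes. A Leiden cluster that met the naming rule for microglia, with 8 of 8 markers detected, held 36 gated cells of the short-wavelength library, against 18 of the white light library. Of those markers Ctss, Fcer1g and Tyrobp chose the gated cells and so check nothing; the other 5, Trem2, Laptm5, Cd53 and Ly86 among them, were not used by the gate. The other 8 and 5 gated cells fell in a small cluster that was left unnamed, since both microglial and MHC class II markers met the score there. Among these gated cells, MHC class II UMIs came almost wholly from 1 white light cell of 4379 UMIs, with 70. A short-wavelength cell of 2764 UMIs had 2, and the rest had 0. Of the T or NK cell list (6 genes) and the mast cell list (4 genes), no UMI was found in gated cells. The neutrophil list was at 0 except for Csf3r, which had 78 UMIs in short-wavelength and 28 UMIs in white light gated cells, and the B cell list was at 0 except for Cd79b, with 9 and 3 UMIs. The monocyte list had 0 and 3 UMIs, with Ccr2, Ly6c2 and Chil3 at 0.

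Border macrophage and MHC class II markers differed between the libraries. The border macrophage list (9 genes) had 15 UMIs in short-wavelength gated cells and 52 UMIs in white light gated cells, with Cd163, Cbr2 and Folr2 at 0 in both libraries. Its summed level per cell ran from 0 to 314 CPM under short-wavelength light and from 0 to 4978 CPM under white light (CPM, the UMIs of a gene or list per 1000000 UMIs of the same cells). One white light cell of 8036 UMIs held 40 of those UMIs; it had 74 C1q UMIs and 15 of Cx3cr1, but 0 of Tmem119 and 0 of Siglech. The MHC class II list had 57 UMIs in short-wavelength and 102 UMIs in white light gated cells, and 1 white light cell of 4379 UMIs held 70 of them. That cell had 32 C1q UMIs, 1 UMI of Cx3cr1 and 0 of P2ry12, Tmem119 and Siglech. Of the plasmacytoid dendritic list, the cells that share Siglech, 7 and 16 UMIs were found, with Ly6d, Klk1 and Ccr9 at 0. The values without cells that had at least 5 UMIs of the border macrophage or MHC class II lists stand beside the light comparison.

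The C1q genes were the most abundant of the 8 in gated cells. In UMIs per cell, C1qa ran from 3 to 67 with a median of 25 in the 44 short-wavelength cells, and from 2 to 47 with a median of 22 in the 23 white light cells. C1qb ran from 4 to 77 with a median of 24.5 under short-wavelength light, and from 2 to 49 with a median of 22 under white light. C1qc ran from 1 to 53 with a median of 21.5 under short-wavelength light, and from 3 to 49 with a median of 20 under white light. No gated cell lacked any of the C1q genes, and the cells of both libraries overlapped over most of their range. Summed over all gated cells, C1qa stood at 3601 CPM in short-wavelength cells and 2751 CPM in white light cells, C1qb at 3610.3 and 2612 CPM, and C1qc at 3197 and 2360.5 CPM. Together they made up 1.04% of all UMIs of short-wavelength gated cells and 0.772% of those of white light gated cells.

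The identity genes were lower and more often missing. Cx3cr1, the chemokine receptor, ran from 0 to 37 UMIs per cell with a median of 19.5 under short-wavelength light, and from 1 to 33 with a median of 17 under white light. Csf1r, the receptor for Csf1 and Il34, ran from 0 to 21 with a median of 10 under short-wavelength light, and from 0 to 19 with a median of 11 under white light. P2ry12, the ADP receptor, ran from 0 to 19 with a median of 8 under short-wavelength light, and from 0 to 20 with a median of 5 under white light. The lowest pair was Tmem119 and Siglech. Tmem119 ran from 0 to 19 UMIs with a median of 6 under short-wavelength light, and from 0 to 12 with a median of 2 under white light. Siglech ran from 0 to 11 UMIs with a median of 5 under short-wavelength light, and from 0 to 10 with a median of 2 under white light. Both genes had the largest gap between the medians relative to their level, but the cells of the libraries still overlapped.

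**Figure D1:**
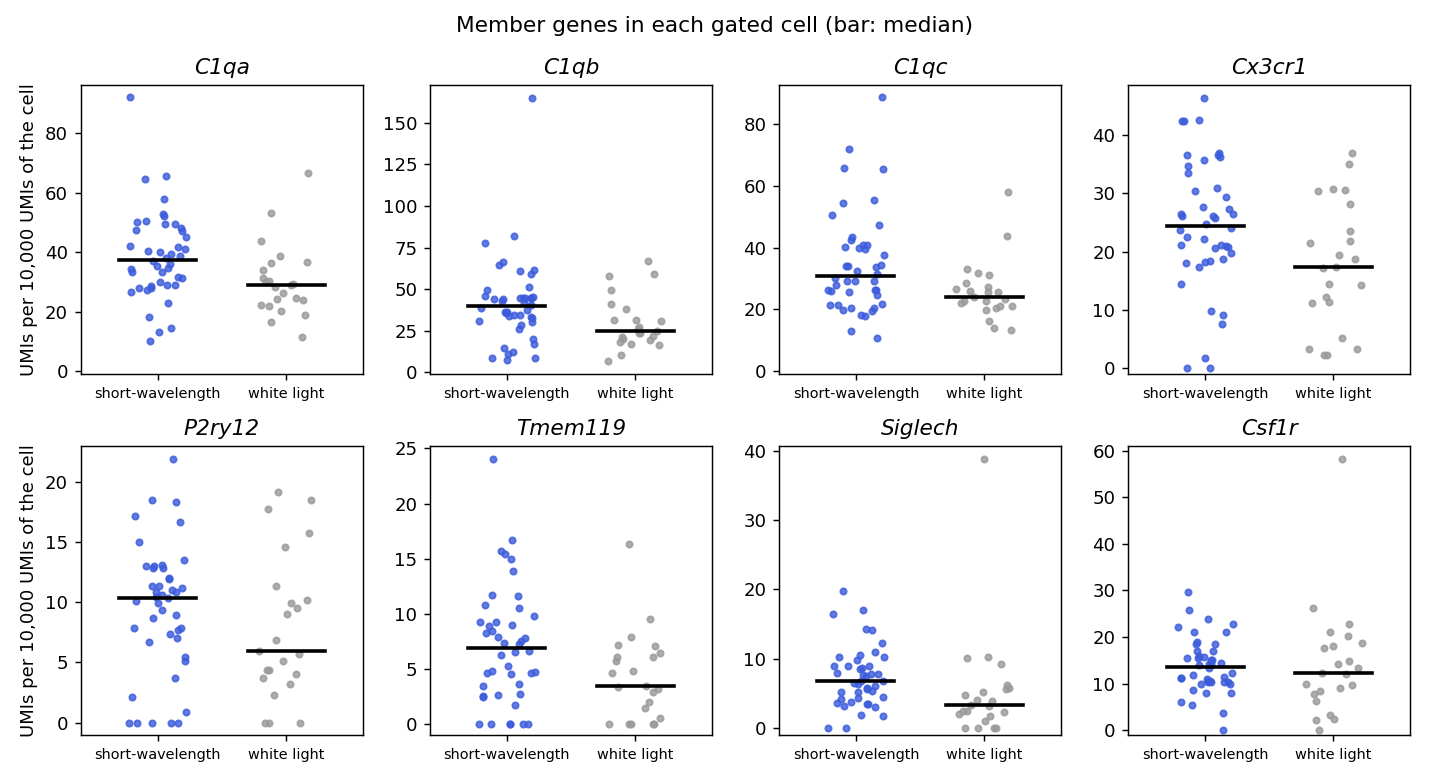
UMIs of each of the 8 genes per 10000 UMIs of the cell, one point per gated cell, for 44 short-wavelength cells (left) and 23 white light cells (right); the bar is the median. The points of both libraries overlap for every gene, and the Tmem119 medians are 6.91 in short-wavelength cells and 3.40 in white light cells.

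The order of the genes by UMI count was nearly the same in both libraries. The counts are from 3′ libraries, in which each molecule gives 1 tag, so they were not scaled by gene length. In short-wavelength gated cells C1qb (1127 UMIs) and C1qa (1124) did not differ beyond counting error, with a ratio of 1.003 (0.922 to 1.09), and C1qc (998) came next. Cx3cr1 (778), Csf1r (426), P2ry12 (327) and Tmem119 (246) followed, each below its neighbour by more than counting error. Tmem119 and Siglech (221) did not differ beyond it, at 1.11 (0.924 to 1.34). In white light gated cells C1qa (514), C1qb (488) and C1qc (441) followed each other without a step beyond counting error, and then came Cx3cr1 (350), Csf1r (233), P2ry12 (162), Tmem119 (77) and Siglech (73). The widest step between neighbours was from Cx3cr1 to Csf1r under short-wavelength light, 1.83-fold (1.62 to 2.06), and from P2ry12 to Tmem119 under white light, 2.10-fold (1.59 to 2.80).

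Co-detection was complete for C1q and varied with depth for the identity genes. All C1q genes had a UMI in 44 of 44 short-wavelength cells (100%, 92.0% to 100%) and in 23 of 23 white light cells (100%, 85.2% to 100%). All 8 genes had a UMI in 38 of 44 short-wavelength cells (86.4%, 72.6% to 94.8%) and in 16 of 23 white light cells (69.6%, 47.1% to 86.8%), and these intervals overlap. Among cells of at least 3000 UMIs, all 8 were found in 37 of 37 short-wavelength cells and in 16 of 21 white light cells. Below 3000 UMIs they were found in 1 of 7 short-wavelength cells and in 0 of 2 white light cells. Cells above that cut began at 5475 UMIs in the short-wavelength library and at 3013 UMIs in the white light library. Their depths thus did not match. In cells of 5000 to 12000 UMIs, all 35 short-wavelength cells had all 8. Of the 12 white light cells there, 1 lacked Tmem119 and Siglech and the rest had all 8. That cell, of 8036 UMIs, is the one with 40 border macrophage UMIs. The white light cell of 4379 UMIs, with 70 MHC class II UMIs, lacked P2ry12, Tmem119 and Siglech. No gated cell had fewer than 4 of the 8 genes. Both Tmem119 and P2ry12 were missing from 5 short-wavelength cells, all below 3000 UMIs, and from 2 white light cells.

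**Figure D2:**
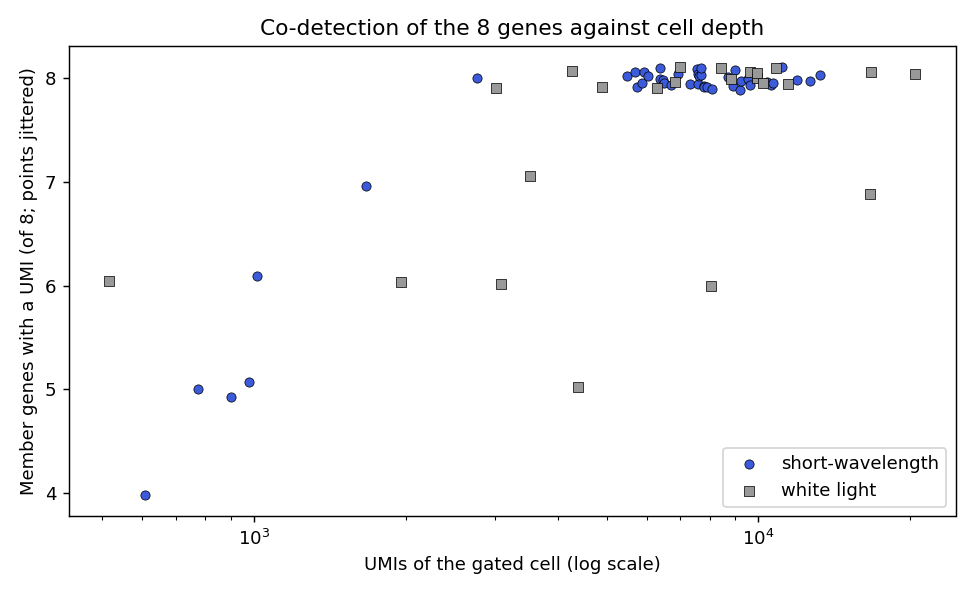
Number of the 8 genes with a UMI (vertical axis, points moved slightly to separate them) against the UMIs of the gated cell (horizontal axis, log scale), circles for short-wavelength and squares for white light. Short-wavelength cells below all 8 genes have under 3000 UMIs, while 5 white light cells above that depth lack at least 1 gene. Among those 5 are the cell with 70 MHC class II UMIs and the cell with 40 border macrophage UMIs. Above 3000 UMIs the short-wavelength cells start at 5475 UMIs and the white light cells at 3013 UMIs.

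Detection was also computed with each cell thinned to 1000 UMIs, as the expected value of random sampling, which left 40 short-wavelength and 22 white light cells. C1qa was then found in 95.6% and 93.2% of cells, against 100% in both unthinned, and Cx3cr1 in 89.5% and 74.4%, against 95.5% and 100% unthinned. P2ry12 was found in 63.5% of short-wavelength, against 51.9% of white light cells, and Csf1r in 74.8% and 65.3%. Unthinned, P2ry12 was found in 88.6% and 87.0%, and Csf1r in 97.7% and 95.7%. The share was lowest for the less abundant pair. Tmem119 was found in 51.3% of thinned short-wavelength, against 33.8% of thinned white light cells, and Siglech in 52.1% and 30.5%. Unthinned, Tmem119 was found in 86.4% and 78.3% of cells and Siglech in 95.5% and 82.6%. At this common depth all 8 genes were expected together in 10.9% of short-wavelength cells and in 3.69% of white light cells.

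The gated cells were not uniform in the ratio of identity genes to C1q. In the microglia-like cluster the 5 identity genes had 63.4 UMIs per 100 C1q UMIs in the 36 short-wavelength cells and 65.7 in the 18 white light cells. In the unnamed cluster they had 27.7 in the 8 short-wavelength cells and 19.1 in the 5 white light cells. C1q itself was as high there, at 1.22% of UMIs in short-wavelength cells and 0.810% in white light cells, against 1.03% and 0.769% in the microglia-like cluster. Cx3cr1, the most abundant of the identity genes, had 1058.5 CPM (15 UMIs) in short-wavelength and 352 CPM (5 UMIs) in white light cells of the unnamed cluster, and 2560.5 and 1999 CPM in those of the microglia-like cluster. Csf1r stood at 988 and 423 CPM in the unnamed cluster, against 1383 and 1315 CPM in the microglia-like cluster. The clusters were built from all variable genes of these cells, so these values are a description with no test.

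The same cells differed in other RNA too. The 16 immediate-early genes, led by Jun, Junb, Egr1 and Fos, took 0.141% of UMIs in short-wavelength and 0.0634% in white light cells of the unnamed cluster. In the microglia-like cluster they took 3.13% and 2.81%. No cell of the unnamed cluster had more than 8 immediate-early UMIs in the short-wavelength library or 4 in the white light library. As a share of UMIs, single cells of that cluster reached 0.890% in the short-wavelength and 0.0971% in the white light library. Single cells of the microglia-like cluster went down to 0.392% and 0.0421%, so the clusters overlapped in both libraries. Ribosomal protein genes took 18.1% and 17.8% of UMIs in the unnamed cluster, against 8.15% and 6.72% in the microglia-like cluster. The cells of the unnamed cluster were also shallower, with medians of 994.5 UMIs under short-wavelength and 3089 UMIs under white light, against 7744 and 9213.5 UMIs. The part of depth, RNA of ribosomal protein genes or MHC class II RNA in the lower Cx3cr1 was not tested.

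Across single cells the C1q genes varied together in both libraries. Other pairs reached such values in 1 library at most. Scaled to each cell's total, the Spearman correlation over the 44 short-wavelength cells was 0.662 for C1qa with C1qb, 0.542 for C1qa with C1qc and 0.648 for C1qb with C1qc. Over the 23 white light cells these were 0.559, 0.660 and 0.464. P2ry12 with Tmem119 gave 0.534 in short-wavelength and 0.109 in white light cells, and Cx3cr1 with Csf1r gave 0.093 and 0.691. Tmem119 and Siglech gave -0.065 in short-wavelength against -0.104 in white light cells, and Cx3cr1 and P2ry12 gave 0.152 and 0.317. The points share a library and each pair shares the cell's depth, so these values are a description.

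All 8 genes were higher in the short-wavelength library, as CPM ratios over the white light library in gated cells, though Csf1r lay below 1 in 4 alternatives and P2ry12 in 1. Of 4922 genes with at least 20 UMIs in gated cells, 48.7% had a ratio above 1, 14.5% a ratio above 1.5 and 19.4% a ratio below the inverse of 1.5. Of the 8, all had a ratio above 1 and 2, Tmem119 and Siglech, a ratio above 1.5; with 8 genes the count of 2 is not set apart from the background share. Among the 246 genes at least as abundant as the least abundant of the 8 (294 UMIs), 72.4% had a ratio above 1 and 10.6% above 1.5, so part of the common direction is shared by abundant genes of these cells. The median log2 ratio, with 5 CPM added to each value, was -0.015 over all 4922 genes and 0.18 over those 246.

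Tmem119 had the highest ratio, 1.91 (1.47 to 2.503), from 788 CPM in short-wavelength against 412 CPM in white light gated cells. Siglech followed at 1.81 (1.38 to 2.39), from 708 CPM in short-wavelength against 391 CPM in white light gated cells. The C1q genes lay close together, at 1.31 (1.18 to 1.46) for C1qa, 1.38 (1.24 to 1.54) for C1qb and 1.35 (1.21 to 1.52) for C1qc. Cx3cr1 stood at 1.33 (1.17 to 1.51), from 2492 CPM in short-wavelength against 1873 CPM in white light cells. For P2ry12 and Csf1r the counting interval held 1. P2ry12 had 1047.5 CPM in short-wavelength against 867 CPM in white light cells, a ratio of 1.21 (0.998 to 1.47), and Csf1r had 1365 and 1247 CPM, a ratio of 1.09 (0.931 to 1.29).

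**Figure D3:**
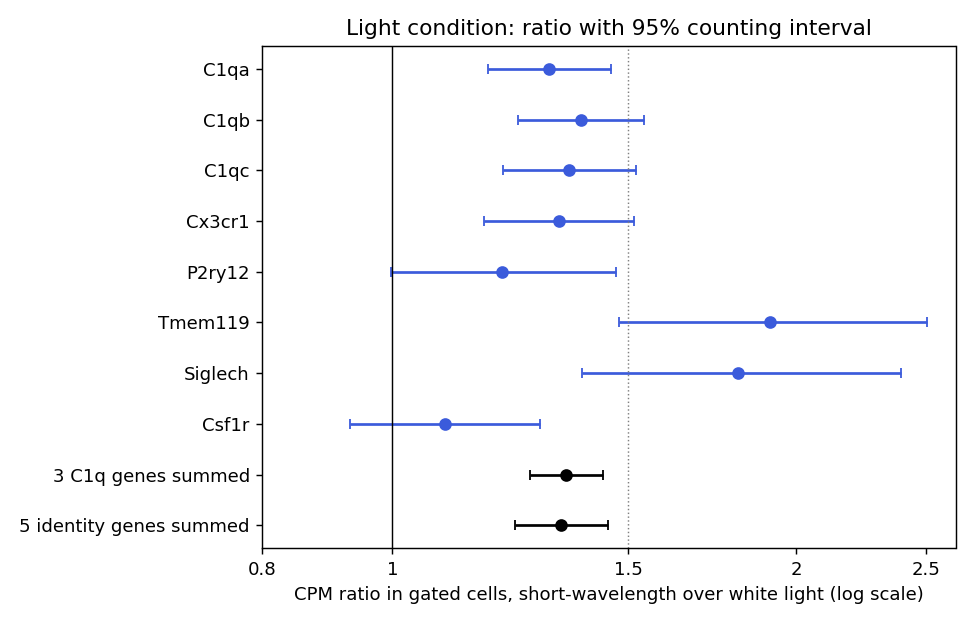
Ratio of CPM in gated cells, short-wavelength over white light (log axis), with the 95% counting interval, for each gene and for the summed C1q and identity genes; the solid line is a ratio of 1 and the dotted line 1.5. Tmem119 (1.91) and Siglech (1.81) lie farthest to the right, and the intervals of P2ry12 and Csf1r cross 1.

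The C1q genes summed gave a ratio of 1.35 (1.27 to 1.43) and the identity genes summed 1.34 (1.23 to 1.45). Over all gated cells the sets thus did not separate. The gate genes, which selected the cells, gave 1.41 (1.29 to 1.54). In single cells the 8 genes together took between 0.566% and 2.97% of UMIs with a median of 1.77% under short-wavelength light, and between 0.657% and 2.71% with a median of 1.28% under white light. The ranges overlap over nearly their whole length, but their upper ends come from cells of 607 and 516 UMIs. The lower quartile of short-wavelength cells, 1.570%, lay next to the upper quartile of white light cells, 1.573%.

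Other measures moved between the same libraries. Rod genes (10 genes, all below 1) stood at 6090 CPM in short-wavelength against 10870 CPM in white light gated cells, a ratio of 0.560 (0.526 to 0.597). A reduced total left out mitochondrial and ribosomal protein genes and every gene with a larger share of UMIs in rods than in gated cells, 16241 of 32285 genes in all. It gave 1.18 (1.11 to 1.26) for C1q, 1.17 (1.08 to 1.27) for the identity genes and a median log2 ratio over all genes of -0.20. The ratios also shifted in gated cells of 5000 to 12000 UMIs, 35 short-wavelength and 12 white light cells. There C1q kept a ratio of 1.29 (1.20 to 1.40), while the identity genes gave 1.11 (1.01 to 1.22), with intervals that overlap narrowly. P2ry12 gave 0.960 (0.772 to 1.20) and Csf1r 0.890 (0.741 to 1.07), which turns the direction of P2ry12 and Csf1r. This window also left out most gated cells of the unnamed cluster and the white light cells of over 15000 UMIs. The parts of depth and of cell mix in the shift were not tested. Csf1r also lay below 1 as a mean over cells (0.969), under the reduced total (0.959) and without the cells of over 15000 UMIs (0.940). Over the 16 alternatives computed, Tmem119 ranged from 1.64 to 2.09 and Siglech from 1.39 to 1.98. Leaving out the gated cells with at least 5 UMIs of the border macrophage or MHC class II lists, 3 under short-wavelength light and 5 under white light, gave ratios of all 8 genes above 1.

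Other microglial identity genes had the same direction. Of 16 such genes, all with at least 20 UMIs, 15 had a ratio above 1, 5 a ratio above 1.5 and 0 a ratio below the inverse of 1.5, with a median log2 ratio of 0.50. Over all 4922 genes the shares were 48.7% above 1 and 14.5% above 1.5, and among the 246 abundant genes 72.4% and 10.6%. Selplg, a ligand of selectins, stood at 1240 CPM in short-wavelength cells and 824 CPM in white light cells, and Trem2, a lipid-sensing receptor that signals through Tyrobp, at 1035 and 690.5 CPM. The list was drawn up with earlier results of these data known, as were the other lists.

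Signalling partners of the receptors had ratios near 1. Of 12 signalling partners, none had a ratio past 1.5 in either direction, and their median log2 ratio was 0.04. Lyn, a Src-family kinase, stood at 650 CPM in short-wavelength against 626 CPM in white light cells, and Gnai2, a G protein subunit that couples to P2ry12 and Cx3cr1, at 663 and 589 CPM. Inpp5d, the phosphatase SHIP1, stood at 653.5 and 567 CPM, and Grb2, an adaptor used by Csf1r, at 314 and 268 CPM.

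C1q stood nearly alone among complement components in gated cells. Of 9 other component genes, which include C3, C2, C4b and the C1r and C1s proteases, none reached 20 UMIs: 6 UMIs in all were found in short-wavelength against 3 in white light gated cells, and C1ra, C1s1, C3, Cfb and Cfd had 0. Among 6 complement receptors, 4 were measured and none passed 1.5, with a median log2 ratio of 0.43. This median was 0.09 in gated cells of 5000 to 12000 UMIs. It was 0.17 without the cells that had at least 5 UMIs of the border macrophage or MHC class II lists. Itgam, a subunit of complement receptor CR3, stood at 439 CPM in short-wavelength against 305 CPM in white light cells, a ratio of 1.44 (1.05 to 1.995). C3ar1, the C3a receptor, stood at 240 and 187 CPM, C5ar1, the C5a receptor, at 147 and 102 CPM, and Itgb2, the partner of Itgam, at 138 and 112 CPM. Among the complement regulators, Vtn, vitronectin, stood at 119 and 123 CPM.

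Of the ligands, Cx3cl1 and Il34 had no UMI in gated cells, while Csf1 did. Cx3cl1, the ligand of Cx3cr1, stood at 38.7 CPM (26.3 to 55.0) in short-wavelength against 37.8 CPM (21.6 to 61.4) in white light rod bipolar-like cells. Rods had 0.160 and 0.120 CPM of it. Csf1 stood at 20.5 CPM (11 UMIs) in short-wavelength against 12.7 CPM (4 UMIs) in white light Müller glia-like cells. In gated cells it stood at 19.2 and 32.1 CPM, with 6 UMIs in each library. Il34, the other ligand of Csf1r, had 0.401 CPM (15 UMIs) in short-wavelength against 0.421 CPM (7 UMIs) in white light rods. The counts of Csf1 and Il34 are too few to compare the conditions.

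Outside the gated cells the 8 genes were found at low levels. Of all their UMIs, 10.9% (10.1% to 11.7%) in the short-wavelength library and 11.9% (10.7% to 13.2%) in the white light library lay outside the gate. The share was 6.49% and 6.72% for C1qa, 7.55% and 7.58% for C1qb, and 7.16% and 8.70% for C1qc. Cx3cr1 had the largest share of the 8 in both libraries, 25.3% (22.7% to 28.0%) under short-wavelength light, against 25.4% (21.5% to 29.6%) under white light. P2ry12 had the second largest, 13.5% (10.2% to 17.4%) and 18.2% (13.1% to 24.3%). Tmem119 had 6.11% (16 UMIs) and 13.5% (12 UMIs), Siglech 7.53% and 9.88%, and Csf1r 9.36% and 8.27%.

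**Figure D4:**
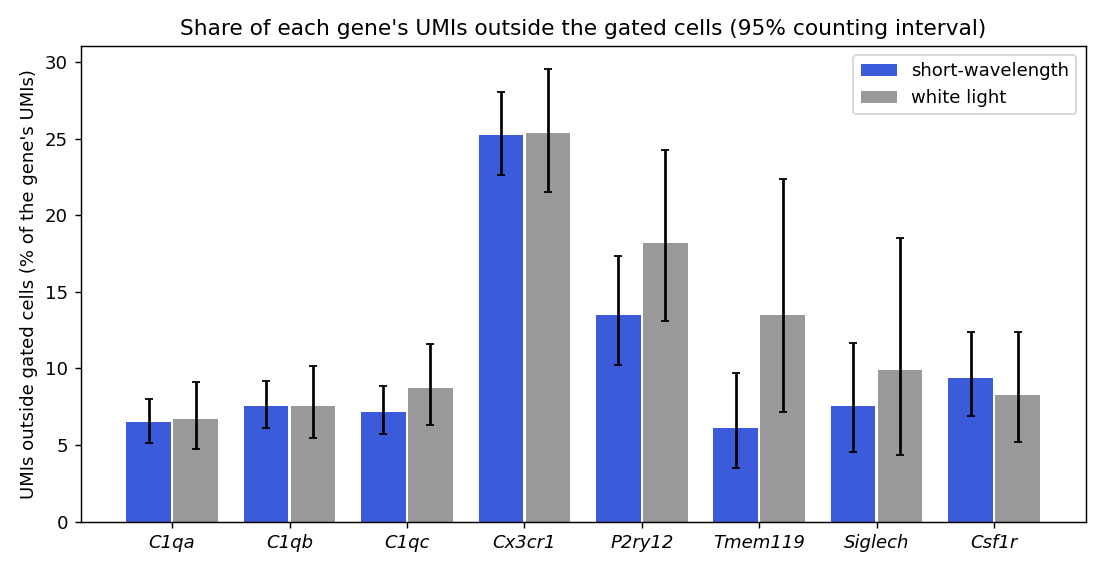
Share of each gene's UMIs that lay outside the gated cells, in percent, with 95% counting intervals, short-wavelength left and white light right in each pair. Cx3cr1 stands above the C1q genes in both libraries, at 25.3% and 25.4%, and the intervals of the libraries overlap for each gene.

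Rods, which should lack these genes, give the background level. C1q UMIs summed to 5.83 CPM in short-wavelength against 5.53 CPM in white light rods, so that gated cells stood 1786-fold (1556 to 2057) and 1397-fold (1131 to 1744) above them. In both libraries together, 0.517% of 17996 rods had a UMI of C1qa, at a median depth of 2420 UMIs, against all 67 gated cells at a median depth of 7590 UMIs. Tmem119 was found in 0.139% of rods, Siglech in 0.122%, Csf1r in 0.306% and P2ry12 in 0.250%. These shares follow the order of the genes in gated cells only in part, since Cx3cr1 was found in 1.85% of rods, more often than C1qa.

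The ratio of each identity gene to C1q was compared inside and outside the gate, since RNA from a single source keeps its genes in 1 ratio. Cx3cr1 had 24.0 UMIs per 100 C1q UMIs (22.1 to 25.9) in short-wavelength and 24.3 (21.5 to 27.3) in white light gated cells, but 110 (90.9 to 132) and 109 (81.1 to 146) in rods. For the other identity genes the intervals in gated cells and rods overlapped in both libraries. Siglech had 6.80 per 100 in short-wavelength gated cells and 7.34 in short-wavelength rods, and 5.06 and 6.52 in those of the white light library. The overlap was narrowest for Tmem119 under white light, with 5.34 (4.19 to 6.71) in gated cells and 13.04 (6.50 to 23.9) in rods on 12 UMIs. P2ry12 under white light had 11.2 (9.48 to 13.2) in gated cells and 19.6 (11.1 to 32.7) in rods. Cx3cr1 shared this shift with Fcer1g, one of the gate genes, at 10.9 and 12.6 in gated cells against 71.1 and 65.2 in rods. Ctss and Tyrobp did not show it, with intervals that overlapped.

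The annotated extent of Cx3cr1 bears on where its reads can come from. The GENCODE model of mm10 spans 168264 bases and overlaps 9 genes, 3 of them on the same strand, while the RefSeq model spans 19614 bases. Gorasp1, an overlapping gene of the same strand that encodes a Golgi protein, stood at 7.67 CPM in short-wavelength against 7.27 CPM in white light rods, where Cx3cr1 stood at 6.39 and 6.01 CPM. In gated cells Gorasp1 stood at 16.02 and 21.4 CPM, far below Cx3cr1. The annotation used for counting is not given in the sources used here, and the part of overlapping genes in the Cx3cr1 counts of rods was not tested.

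P2ry12 stood out in a different class. In Müller glia-like cells it was at 22.4 CPM (11.6 to 39.1) in the short-wavelength library and 22.2 CPM (8.94 to 45.8) in the white light library, with a UMI in 12 of 86 and 6 of 37 cells. In rods it was at 0.749 and 1.08 CPM. Tmem119, Siglech and Csf1r had 0 UMIs in the 123 Müller glia-like cells, where a count of 0 allows up to 3.52 CPM each, and C1q had 4 UMIs. Med12l, a Mediator subunit gene that contains P2ry12 on the other strand, was at 203 CPM in short-wavelength against 251 CPM in white light Müller glia-like cells. Rods had 1.04 and 1.502 CPM of it, and gated cells 64.1 and 74.9 CPM. In rod bipolar-like cells P2ry12 was at 4.996 and 16.5 CPM and Med12l at 55.0 and 59.1 CPM. A count of 0 allows up to 3.75 and 7.09 CPM in those cells, so these P2ry12 values rest on few UMIs. Outside gated cells P2ry12 was thus higher in these classes, where Med12l was also higher, than in rods. Whether the counting used strand is not given in the sources used here; without it, reads of the pair cannot be told apart, and P2ry12 values outside gated cells are uncertain.

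**Figure D5:**
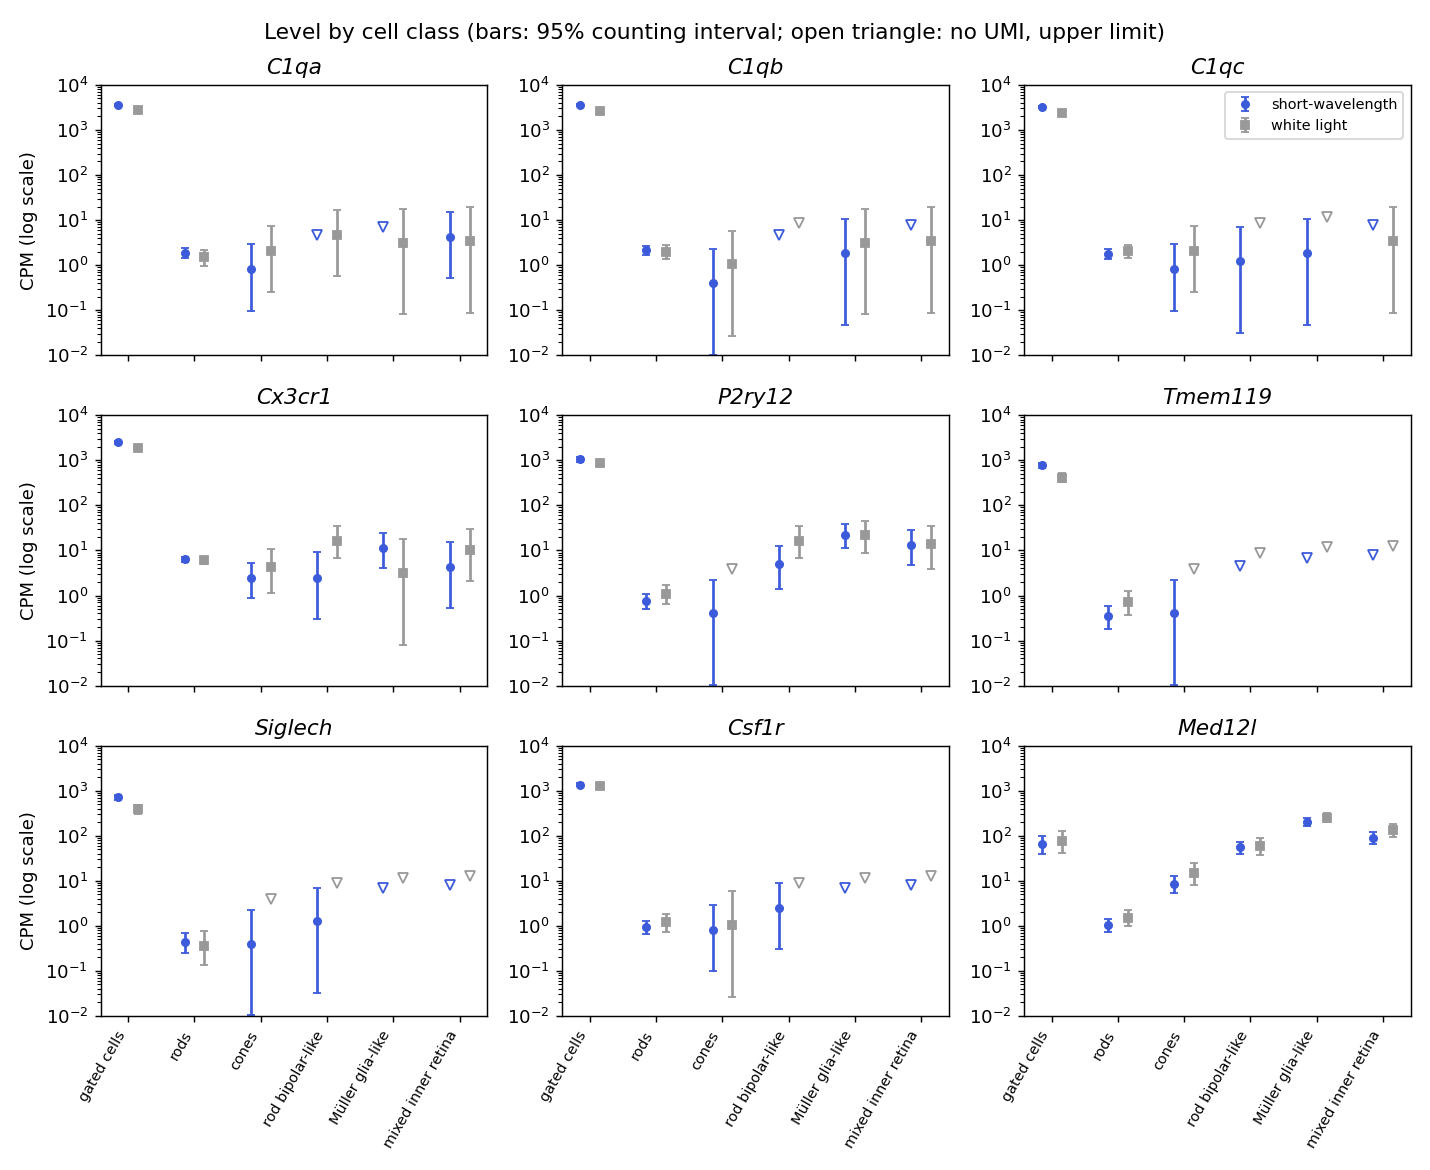
Level of each of the 8 genes and of Med12l in CPM (log axis) by cell class, with 95% counting intervals, short-wavelength (circles) left of white light (squares); an open triangle marks the upper limit where no UMI was found. All 8 genes are highest in gated cells, and P2ry12 in Müller glia-like cells, at 22.4 and 22.2 CPM, stands beside Med12l at 203 and 251 CPM.

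The genes most like the 8 in pattern were ranked by the Pearson correlation of their scaled log level with that of the summed 8 genes over all 14023 short-wavelength and 5436 white light kept cells, averaged over the libraries, among 2640 genes found in enough gated cells. The first was Ly86, at 0.604, with 95.5% of its UMIs in short-wavelength against 96.1% in white light gated cells. Laptm5 (0.584), Selplg (0.575), B2m (0.559), Cd300c2 (0.556), Pld4 (0.550), Slco2b1 (0.550), Mir142hg (0.549), Cd53 (0.548) and Rgs10 (0.545) followed. The cells share their library and depth, and most of them have no UMI of these genes, so the values describe likeness and carry no test.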

How the data were processed

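The authors deposited unnormalised UMI counts for every gene in every barcode. Per the file headers they came from Cell Ranger 9.0.0, and per the submitters' processing notes the build was mm10. Those notes list Seurat and edgeR too, with no version. Libraries were 10x Genomics 3′ libraries per the labels' protocols. A barcode was kept where it had 300 genes or more and no more than 20% of UMIs from mitochondrial genes. The automatic threshold of Scrublet marked 0.00621% of barcodes in the short-wavelength library and 0.0176% in the white light library, below the 0.5% that a working threshold should reach. An expected rate of 0.8% for each 1000 barcodes was used in both libraries instead, and the top scores up to that rate were taken out: 2072 short-wavelength and 259 white light barcodes.

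Cells were clustered with scanpy 1.11.5 (2000 variable genes, 30 principal components, 15 neighbours, Leiden resolution 1, igraph 0.11.9, Python 3.11.15). Clusters were named from marker lists by a rule set after the data were seen: a marker score of at least 0.5, 3 markers detected at 50 CPM, and no rival type within 0.15. A cluster of 161 cells with horizontal and cone bipolar markers stayed unnamed, as did 259 droplets with pigment epithelium, Müller and rod RNA. Cell names are thus rebuilt from the counts.

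Counts were added up over the cells of a class in each library. Ratios of CPM carry an exact interval from the binomial split of both counts, shares the Clopper-Pearson interval and CPM the exact Poisson interval (scipy 1.17.1). A count of 0 allows 3 counts. UMIs limit duplicate reads but not loss before capture, so intervals cover counting error only. No p-value was computed. The calculation was tested on simulated data. Named genes are the 8, up to 4 genes of each list with the most UMIs in gated cells, the ligands and the 10 most alike, apart from some genes of the lists that are not reported here; genes with 0 UMIs or that overlap a member were named after their values were seen. The genes and lists were chosen with earlier results of these data known. The alternatives were other gates, doublet rules, cell filters, thinning, scalings (TMM in edgeR 4.0.16, R 4.3.3, and median of ratios), a mean over cells, pseudocounts, minimum counts and the microglia-like cluster in place of the gate.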

Additional observations from a re-analysis of the deposited data

How the results depend on the processing

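No paired analysis was possible because each light condition had 1 library. With 1 library per condition no replicate could be left out. Over 16 alternatives C1qa, C1qb, C1qc, Cx3cr1, Tmem119 and Siglech kept a ratio above 1, with C1q summed from 1.18 to 1.47. The alternatives that kept the doublets or used the Scrublet threshold could not change these ratios, since no gated cell was among the doublets removed. P2ry12 ranged from 0.960 to 1.32 and Csf1r from 0.890 to 1.20. The ratio of gate shares ranged from 0.676 to 0.792 over 6 alternatives. TMM scaling gave 1.47 for C1q, 1.46 for the identity genes and 1.47 for all 8, with a median over all genes of 0.11 (log2). Median-of-ratios scaling gave 1.44 for C1q and 1.44 for all 8. A total without mitochondrial, ribosomal protein and rod-rich genes gave 1.18, 1.17 and 1.18 for C1q, the identity genes and all 8, with 9.02% of genes above 1.5 and 27.6% below its inverse. Alternatives chosen after seeing the data gave 1.29 for C1q, 1.11 for the identity genes and 1.215 for all 8 in cells of 5000 to 12000 UMIs. Without cells over 15000 UMIs the identity genes gave 1.18 and all 8 gave 1.24. Only 1 of the 8 passed 1.5 in both of these and with a mean over cells. The immediate-early median log2 ratio, 0.16, turned to -0.029 under the reduced total, -0.25 in cells of 5000 to 12000 UMIs and -0.13 without cells over 15000. The complement receptor median, 0.43, fell to 0.25 under the reduced total, 0.09 in cells of 5000 to 12000 UMIs and 0.26 without cells over 15000. Without cells that had at least 5 UMIs of the border macrophage or MHC class II lists, this median was 0.17. With no minimum count 30.4% of genes lay below the inverse of 1.5. All 8 genes were found together in 97.4% of short-wavelength cells at a minimum of 1500 UMIs, in 100% of them in the microglia-like cluster, from 3000 UMIs or from 5000 to 12000 UMIs, and in 91.7% of white light cells in that last range. At 1000 UMIs all 8 were expected in 10.9% of cells under short-wavelength light and in 3.69% under white light, and all C1q genes in 85.1% and 77.3%. The share of UMIs outside the gate was 11.96% and 13.4% at a gate of 10 UMIs, 12.7% under short-wavelength light with doublets kept, and 14.6% and 17.04% with the microglia-like cluster as the gate. Scrublet's automatic threshold marked too few barcodes to be used, so that alternative fell back to the same rate and the same values. The cause of these shifts was not tested. Depth limits the statements on Tmem119 and Siglech, with 77 and 73 UMIs in white light gated cells, and on every class outside the gate.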
